A study of Mus musculus with 4 samples.

Results

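The collagen genes encode the chains of the collagens, the structural proteins that give the extracellular matrix its tensile strength. They were taken as the genes whose symbol reads Col, a number, the letter a and a number, with no suffix, which gave 44 of the 31253 genes in the deposited feature list. The choice used no measured value. Collagen chains wind around each other into a helix, and several of the chains described here are known partners in one molecule. Fibrillar collagens form the fibres of the meninges, of large vessel walls and of scars, and in the brain they are known as products of fibroblasts and mural cells. Type IV chains form the sheet of the basement membrane under the endothelium and around pericytes, type VI chains form beaded filaments, and the remaining types decorate fibrils, span the cell membrane or build short networks.

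The data were 4 single-cell RNA libraries made with BD Rhapsody, a microwell method that tags each captured mRNA at its 3′ end with a unique molecular identifier (UMI). The tissue was the ipsilateral hemisphere of adult mice, male and/or female, taken 3 days after tMCAO, transient occlusion of the middle cerebral artery, which models ischemic stroke by closing and reopening that vessel. The 2 Flox libraries came from Htr2b flox/flox littermates, and the 2 libraries titled Ms4a3 cKO (cKO below) from mice that the design text gives as carrying Htr2bERCre and Ms4a3-Cre. Mice received tamoxifen and a washout of 3 days before surgery, and no cell type was enriched. Ms4a3-Cre is known for acting in granulocyte and monocyte progenitors. The labels give C57B6 as the genotype of all 4 libraries, and they do not say which Cre allele acted, whether the littermates carried one, or whether a library was 1 animal or a pool. The p-values below therefore measure only the spread between these libraries, which may be technical.

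The libraries held 77580518 to 105566650 UMIs, and 59497 of 63181 barcodes were kept, with 13 barcode sequences found in more than 1 library. Clustering without the collagen genes gave 58 clusters, from which 16 cell classes were named by marker genes. The names are rebuilt and not the authors', each stands for cells that resemble the type, and 15 clusters with 26.6% of the cells kept no name. These unnamed clusters held 2.59, 8.32, 18.1 and 19.4% of the collagen UMIs of Flox 1, Flox 2, cKO 1 and cKO 2. Htr2b, the floxed gene, stood at 9.60, 26.5, 8.15 and 14.6 CPM in monocyte-macrophages and at 47.3, 108, 99.9 and 85.8 CPM in microglia of Flox 1, Flox 2, cKO 1 and cKO 2, so the groups overlapped in both classes. A 3′ tag may lie outside the deleted part, and these values do not check the labels.

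The Flox libraries stood apart from the cKO libraries and from each other in their collagen genes. Collagen made up 1182, 2617, 439 and 445 counts per 1000000 UMIs in Flox 1, Flox 2, cKO 1 and cKO 2. The fibroblasts of Flox 1 had a median of 9951 UMIs per cell, against 1580, 1680 and 1898 in the other libraries. Flox 2 carried more Col1a1 than any other library in cells that are not known to make it: 14.6 CPM (UMIs of a gene per 1000000 UMIs of the class in that library) in microglia, against 3.12, 0.507 and 0.427 in Flox 1, cKO 1 and cKO 2. Values of the libraries are given in the order Flox 1, Flox 2, cKO 1 and cKO 2 from here on. Since a UMI stands for 1 molecule read at its 3′ end, CPM was not divided by gene length, and levels of different genes are compared on this scale of molecules.

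Sequence before the start of 4 genes on which the results turn is shown first: Col1a2 and Col3a1, the most and the third most abundant collagen genes by UMIs, and Col4a5 and Col4a6, which start back to back. Capitals mark CCAAT or TATAAA or GGGCGG on either strand, which do not overlap each other in these windows, and each line is read 5′ to 3′ on the gene's own strand (RefSeq, GRCm38.p6). The lines of Col1a2 and Col3a1 run up to the base before the annotated start, and those of Col4a5 and Col4a6 leave off the last 49 and 19 bases before it. The first is on the plus strand at chr6:4505368-4505617, the second on the plus strand at chr1:45311288-45311537, the third on the plus strand at chrX:141475169-141475369 and the fourth on the minus strand at chrX:141474096-141474326.
Col1a2: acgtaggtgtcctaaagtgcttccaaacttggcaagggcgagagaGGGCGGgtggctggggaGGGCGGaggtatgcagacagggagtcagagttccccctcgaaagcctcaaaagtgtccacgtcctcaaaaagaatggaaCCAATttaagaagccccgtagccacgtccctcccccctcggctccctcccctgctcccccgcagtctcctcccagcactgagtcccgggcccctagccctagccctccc
Col3a1: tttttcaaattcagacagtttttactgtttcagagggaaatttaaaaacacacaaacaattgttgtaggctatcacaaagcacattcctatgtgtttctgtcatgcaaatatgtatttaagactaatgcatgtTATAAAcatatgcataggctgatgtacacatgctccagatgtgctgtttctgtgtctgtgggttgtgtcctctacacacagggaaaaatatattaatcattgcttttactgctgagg
Col4a5: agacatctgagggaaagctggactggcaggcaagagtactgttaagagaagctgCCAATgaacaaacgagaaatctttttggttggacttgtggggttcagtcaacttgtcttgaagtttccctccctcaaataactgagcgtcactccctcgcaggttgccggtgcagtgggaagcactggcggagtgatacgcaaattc
Col4a6: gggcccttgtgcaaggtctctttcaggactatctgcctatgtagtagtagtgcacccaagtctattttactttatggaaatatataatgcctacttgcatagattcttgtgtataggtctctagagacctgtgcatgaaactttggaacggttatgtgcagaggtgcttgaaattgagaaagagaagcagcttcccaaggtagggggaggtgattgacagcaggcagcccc
Col1a2 held CCAAT 109 bases before its start and GGGCGG 188 and 205 bases before it. Col3a1 held TATAAA 117 bases before its start, and Col4a5 held CCAAT 196 bases before its own. In the bases left off the lines, Col4a5 held GGGCGG 30 bases before its start and Col4a6 held GGGCGG, on the opposite strand, 21 bases before its own. Promoter windows were matched for 35 of the 44 genes, and CCAAT stood in 12 of them, TATAAA in 5 and GGGCGG in 21. Over all 32851 windows of the same length the shares were 33.85, 12.37 and 32.74%. These are matches of letters and no measure of binding.

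The 6 chains of type IV are encoded by 3 pairs of neighbours that start head to head, according to the same annotation. Col4a1 (chr8:11198423-11312889, minus strand) and Col4a2 (chr8:11312805-11449287, plus strand) overlap by 85 bases. Col4a4 (chr1:82448419-82587034, minus strand) and Col4a3 (chr1:82586921-82722059, plus strand) overlap by 114 bases. Col4a6 (chrX:141165403-141474095, minus strand) and Col4a5 (chrX:141475370-141689236, plus strand) lie 1274 bases apart.

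Collagen was most abundant in the fibroblasts. Their collagen genes together reached 50165, 39038, 12859 and 15322 CPM, a mean of 29346 ± 18220 (SD, n = 4). The next classes were smooth muscle cells with 3417 ± 409 (SD, n = 3) and pericytes with 3411 ± 669 (SD, n = 4), followed by choroid plexus epithelium with 1844 ± 428, endothelial cells with 1611 ± 727, ependymal cells with 1198 ± 207 and oligodendrocyte precursors with 1153 ± 322 (SD, n = 4 each). All 4 fibroblast values lay above every library of these classes, whereas smooth muscle cells and pericytes overlapped. The order of these 2 classes depended on the settings: the mean of pericytes became 6449.6 CPM at clustering resolution 2 and 6474.1 CPM with collagen genes allowed in the clustering, and that of smooth muscle cells 5276.3 CPM (n = 2) under 10% mitochondrial UMIs. Astrocytes had 524 ± 70.0, neuroblasts 353 ± 247, mature oligodendrocytes 203 ± 96.3, microglia 179 ± 44.3 and monocyte-macrophages 84.9 ± 36.6 CPM (SD, n = 4 each). Fibroblasts were 248, 803, 124 and 165 cells.

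The share of a library's collagen UMIs that each class held differed between the groups of libraries. Fibroblasts held 88.1 and 82.5% of them in the Flox libraries and 19.6 and 25.4% in the cKO libraries. Endothelial cells held 0.370, 2.46, 26.8 and 18.3%, and microglia, the most numerous class, held 6.08, 2.78, 13.2 and 16.4%. Pericytes held 0.0774, 0.228, 3.06 and 3.39%, a mean of 1.69%, which became 10.9% at clustering resolution 0.5 or with predicted doublets kept and 6.26% at resolution 2. These shares follow cell numbers as well as levels: endothelial cells were 145, 740, 1640 and 1684 cells, so a dissociation that yields fewer cells of a class and fewer such cells in the tissue cannot be told apart. With 2 libraries against 2, an exact permutation test cannot go below p = 0.333 (two-sided), and no test was made on the shares.

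**Figure D1:**
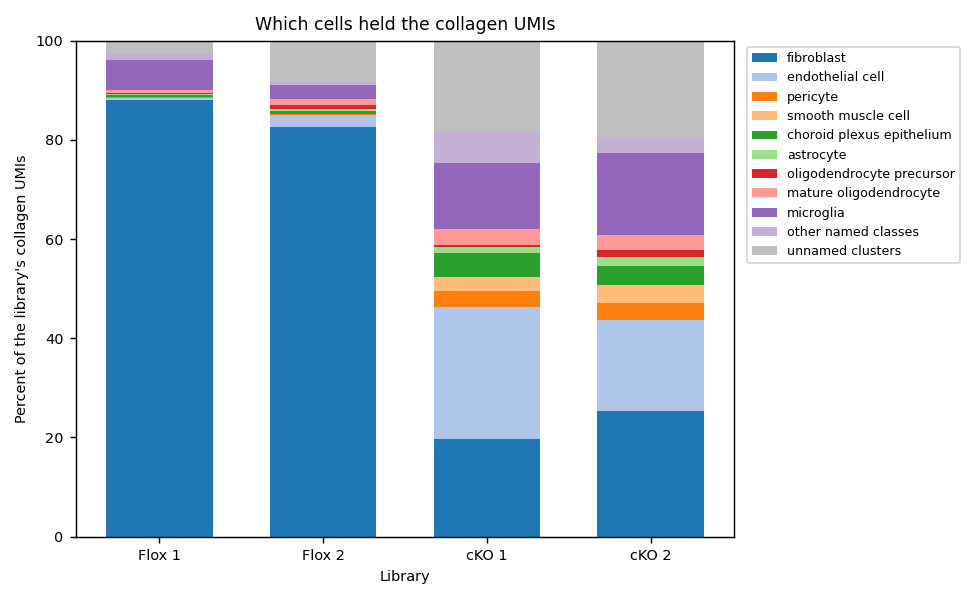
Percent of the collagen UMIs of each library that fell in each cell class, unnamed clusters included. Fibroblasts take 88.1 and 82.5% of the bar in the Flox libraries and 19.6 and 25.4% in the cKO libraries, where endothelial cells and microglia take larger parts.

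Of the 42 collagen genes with at least 30 UMIs in all, 22 had their highest mean level in fibroblasts. The others peaked in pericytes (4 genes), newly forming oligodendrocytes (4), oligodendrocyte precursors (3), ependymal cells (3), choroid plexus epithelium (2), smooth muscle cells (2), border macrophages (1) and mature oligodendrocytes (1). The newly forming oligodendrocytes were measured in Flox 1 alone, where precursors had the higher level for Col9a1 and Col9a2 of these 4. Col17a1 and Col6a4 had 24 and 12 UMIs in all and were not placed. The peaks of Col24a1 and Col28a1 in smooth muscle cells rested on 1 and 2 UMIs there. The collagen families filled the classes differently: fibrillar chains were 80.9% of the collagen UMIs of fibroblasts, type IV chains were 93.1% of those of endothelial cells and 59.3% of those of pericytes, and short chain collagens were 50.1% of those of the choroid plexus epithelium (means over libraries).

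Among the fibrillar collagens, type I is built from the products of Col1a1 and Col1a2 and type III from that of Col3a1. Col1a2 stood at 16493, 17602, 5247 and 5889 CPM in fibroblasts, a mean of 11308 ± 6648 (SD, n = 4). Col1a1 stood there at 12815, 9482, 2053 and 2463 CPM, and Col3a1 at 10023, 5832, 1660 and 2264 CPM. For all 3 genes both Flox libraries lay above both cKO libraries. Outside fibroblasts Col1a2 was next highest in smooth muscle cells (785 ± 51.9 CPM, SD, n = 3) and pericytes (770 ± 345 CPM, SD, n = 4), whose values overlapped, and then in choroid plexus epithelium (224 ± 143 CPM) and astrocytes (137 ± 58.4 CPM, SD, n = 4 each). Col3a1 averaged 227 CPM in smooth muscle cells and 120 CPM in pericytes, with 307, 160, 5.67 and 5.43 CPM over the pericyte libraries. The means of Col1a1 outside fibroblasts were at most 50.2 CPM, in smooth muscle cells.

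The share of cells with a UMI gave the same order. A Col1a1 UMI was found in 93.1, 88.2, 68.5 and 75.2% of fibroblasts and in 1.88, 8.11, 0.267 and 0.254% of microglia, which are not known to make it and had a median of 6535, 6421, 5014 and 5882 UMIs per cell. Among cells with at least 1000 UMIs, thinned to that depth, these values became 94.2, 92.7, 57.9 and 62.1% in fibroblasts and at most 1.67% in microglia. This left out 42, 297, 29 and 41 shallower fibroblasts, so the thinned values describe a deeper set of cells. A Col1a1 UMI in endothelial cells was found in 0, 6.62, 0.427 and 0.297% of cells. The 0 of Flox 1 has an exact 95% upper limit of 2.51% (Clopper-Pearson). Endothelial cells were shallower than microglia in every library, at median depths of 3127, 2570, 2206.5 and 2124 UMIs. At these unlike depths the raw shares cannot rank endothelial cells against microglia.

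Astrocytes carried more type I transcripts than microglia. Their Col1a2 level was 119, 96.9, 109 and 224 CPM, against 4.00, 25.1, 1.05 and 1.31 CPM in microglia. Among cells with at least 1000 UMIs, thinned to that depth, a Col1a2 UMI was found in 9.72, 10.6, 11.3 and 18.03% of astrocytes. In microglia the shares were 0.305, 3.06, 0.156 and 0.119%, and each library's astrocytes lay above its own microglia. Other classes did not all lie below them: Col1a2 stood at 5.74, 215, 16.03 and 34.3 CPM in neuroblasts and at 14.1, 102, 16.5 and 0 CPM in T or NK cells, so that in Flox 2 both classes lay above the astrocytes, and in the other libraries below. For Col1a1 the thinned shares were 4.86, 4.56, 2.84 and 1.93% in astrocytes and 0.203, 1.67, 0.0670 and 0.0679% in microglia. Among the 6 astrocyte clusters, Col1a2 had its highest means in G2 (206, 214, 218 and 272 CPM), G10 (127, 206, 188 and 296 CPM) and G5 (128, 260, 139 and 291 CPM), and lower means in G0 (19.4, 203, 54.7 and 126 CPM), G11 (87.2, 46.0, 55.5 and 60.0 CPM) and G13 (22.3, 40.3 and 26.8 CPM in Flox 2, cKO 1 and cKO 2). The G2, G5 and G10 clusters had little Gfap, the intermediate filament of reactive astrocytes (at most 348 CPM), whereas G0 had 920 to 1704, G13 805 to 1465 and G11 2121 to 2303 CPM. Col1a2 in G0 lay above G11 in Flox 2 and cKO 2 and below it in the other libraries. Dcn, a proteoglycan of collagen fibres that marks fibroblasts, stood at 0 to 35.4 CPM in G2, G5 and G10 and at 1084 to 7633 CPM in the fibroblast clusters.

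The other fibrillar chains were spread over several classes. Col5a2, a chain of type V that is incorporated into type I fibrils, stood at 1562, 1437, 657 and 585 CPM in fibroblasts, and its partner Col5a1 at 353, 430, 95.04 and 120 CPM. Col11a1, a chain of type XI known from cartilage, was highest in oligodendrocyte precursors, at 530, 900, 402 and 526 CPM (589 ± 215, SD, n = 4), above the 373, 138, 56.6 and 42.1 CPM of fibroblasts in every library. A Col11a1 UMI was found in 58.8, 86.0, 66.7 and 73.6% of precursors and in at most 0.676% of microglia. Col27a1, a type XXVII chain, peaked in pericytes (239, 131, 90.7 and 100 CPM) and was the leading collagen gene of microglia (125, 104, 76.7 and 68.8 CPM). A Col27a1 UMI was found in 46.0, 44.0, 33.3 and 31.9% of microglia and in 3.88, 3.99, 2.55 and 1.195% of border macrophages, whose median depth was 5870, 7738, 7134 and 5613 UMIs per cell. These classes did not overlap. Col2a1, the main collagen of cartilage, was highest in mature oligodendrocytes, at 2.66, 7.07, 2.69 and 2.42 CPM only, and Col5a3 averaged 25.6 CPM in ependymal cells and Col11a2 reached 47.1 CPM in newly forming oligodendrocytes of Flox 1.

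Type IV chains formed the common collagen of the vessel wall. Col4a1 stood at 580, 1882, 1395 and 1675 CPM in pericytes, at 1030, 1784 and 1296 CPM in smooth muscle cells of Flox 2, cKO 1 and cKO 2, at 1416, 1528, 1092 and 1231 CPM in fibroblasts and at 395, 1870, 1303 and 1044 CPM in endothelial cells. These 4 classes overlapped, and no order among them held beyond the spread over libraries. Ependymal cells followed with 86.2 ± 40.6 CPM, and oligodendrocyte precursors and astrocytes had 41.0 and 39.6 CPM. Col4a2 averaged 437 ± 422 CPM in fibroblasts, 334 ± 67.1 CPM in endothelial cells, 302 ± 68.9 CPM in smooth muscle cells (n = 3) and 265 ± 21.5 CPM in pericytes (SD, n = 4 otherwise). A Col4a1 UMI was found in 53.1, 76.5, 70.1 and 63.8% of endothelial cells and in 0.424, 4.32, 2.56 and 1.83% of microglia.

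**Figure D2:**
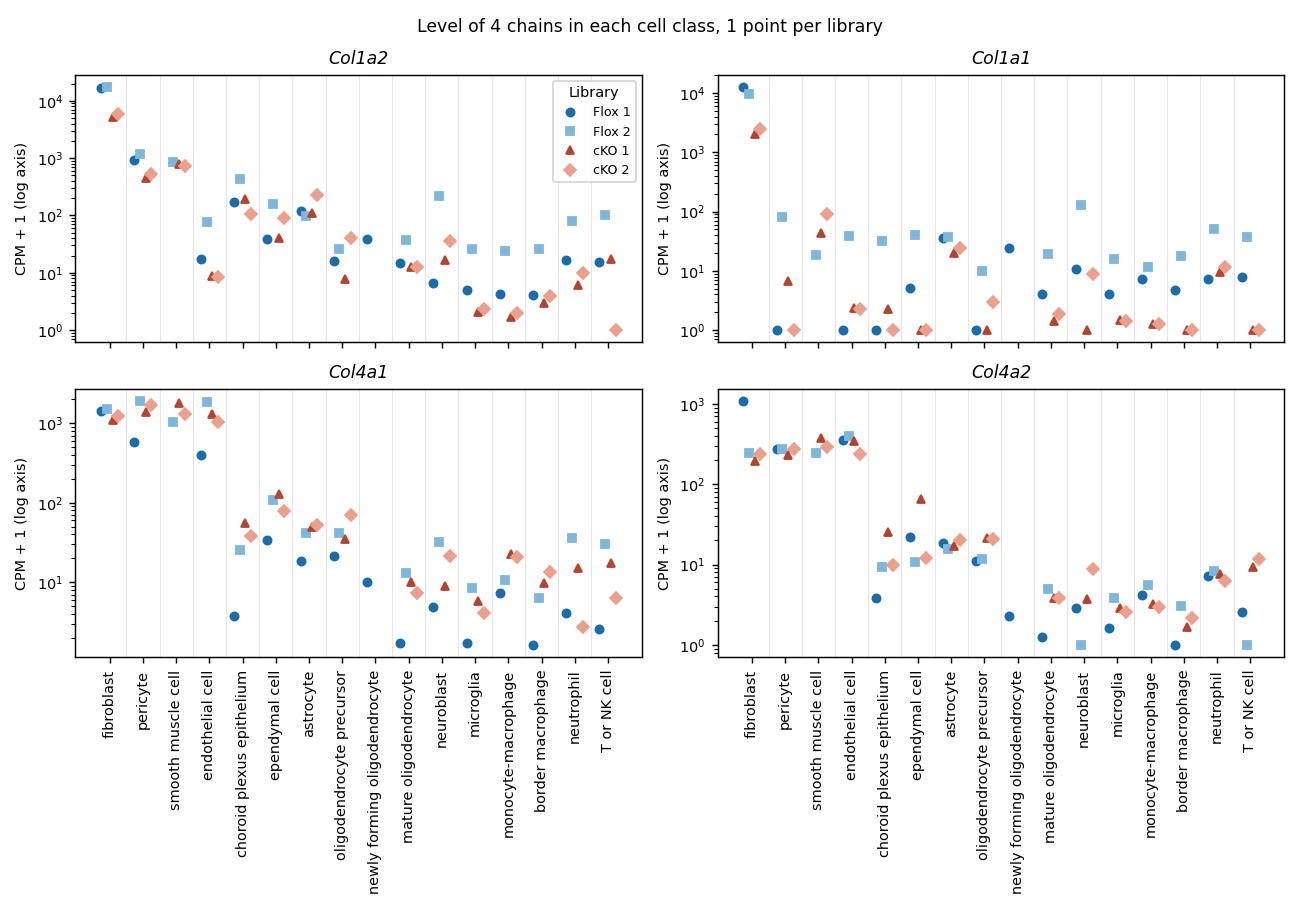
Levels of Col1a1, Col1a2, Col4a1 and Col4a2 (CPM, log axis) in each cell class, 1 point per library. Col1a1 and Col1a2 are highest in fibroblasts, whereas Col4a1 lies near 1000 CPM or above in pericytes, smooth muscle cells, fibroblasts and endothelial cells of most libraries.

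The other type IV chains, known from the basement membranes of kidney, eye and ear, had narrower patterns. Col4a4 stood at 273, 94.4, 167 and 204 CPM in pericytes, above the fibroblasts of all libraries, and at 50.5, 92.8, 93.8 and 59.4 CPM in choroid plexus epithelium. Col4a3 peaked in the same class, at 0, 72.6, 139 and 117 CPM in pericytes, with 28.5 CPM on average in choroid plexus epithelium. Flox 1 had only 14 pericytes, so its 0 rests on few UMIs. Col4a5 stood at 1102, 208, 190 and 337 CPM and Col4a6 at 145, 52.3, 78.9 and 138 CPM in fibroblasts. Col4a5 was also found in astrocytes, at 65.5, 82.7, 60.9 and 28.8 CPM, where cluster G11 had 198, 120, 107 and 20.0 CPM.

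Partner chains did not come in fixed proportions. Col4a1 made up 57.0, 86.1, 84.8 and 84.0% of the Col4a1 and Col4a2 UMIs of fibroblasts, and 52.5, 82.6, 79.0 and 81.4% of those of endothelial cells. Flox 1 lay below the other libraries in both classes, and its exact 95% intervals, 55.6 to 58.3% and 47.5 to 57.4%, cover counting error only. In pericytes and smooth muscle cells Flox 1 had too few UMIs. In the other libraries the share was 87.2, 85.7 and 85.8% in pericytes and 81.1, 82.6 and 81.8% in smooth muscle cells. The low share of Flox 1 was present in single clusters as well: in fibroblast cluster S7 it was 57.4% in Flox 1 and 85.6% in Flox 2, and in endothelial cluster S3 it was 56.9% in Flox 1 and 84.3, 79.7 and 82.3% in the others. Col6a1, of the Col6a1 and Col6a2 UMIs of fibroblasts, likewise had 64.1% in Flox 1 and 87.0, 80.4 and 85.8% in the others.

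For type I the share of Col1a1 among Col1a1 and Col1a2 UMIs differed between classes. It was 43.7, 35.0, 28.1 and 29.5% in fibroblasts. In pericytes it was 6.32, 1.24 and 0% (0 of 193 UMIs, exact 95% upper limit 1.89%) in Flox 2, cKO 1 and cKO 2, and in smooth muscle cells 2.00, 5.18 and 10.98%. Pooled over libraries the share was 37.2% in fibroblasts and 2.34% in pericytes, so the type I transcripts of pericytes were nearly all Col1a2. In choroid plexus epithelium the pooled share was 3.05% and in astrocytes 17.2%, whereas microglia had 37.2%, the value of fibroblasts. Microglia, border macrophages (40.4%) and neutrophils (38.6%) of Flox 2 are classes with few type I UMIs per cell, and whether those UMIs came from free RNA was not tested.

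**Figure D3:**
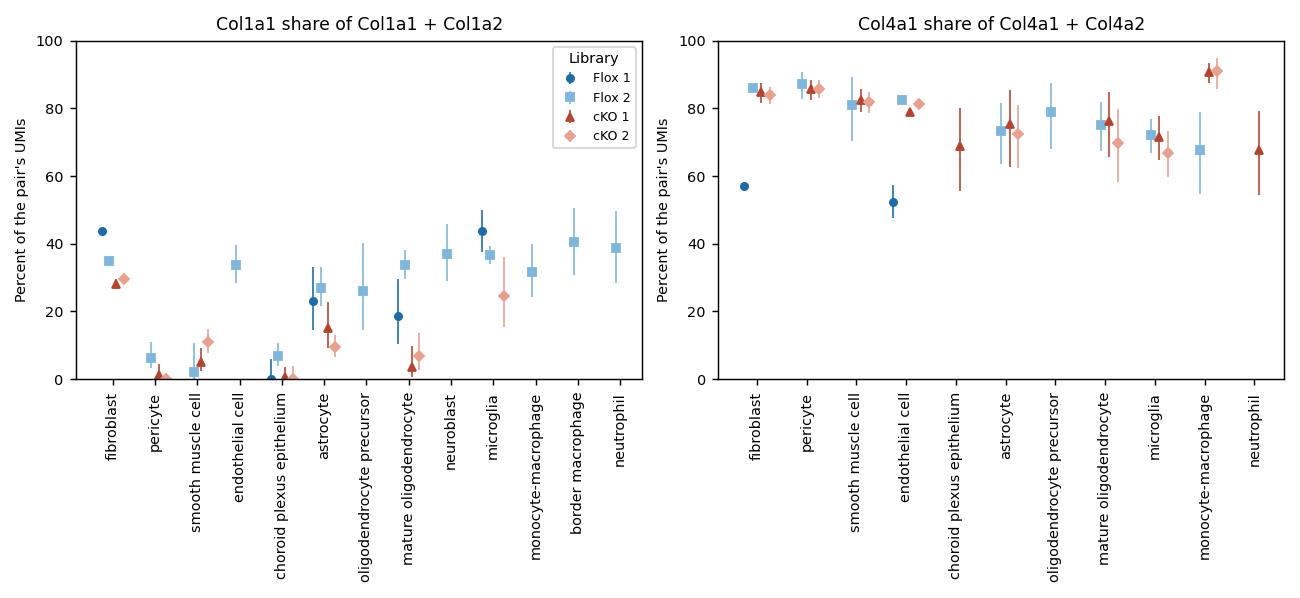
Share of the first chain among the UMIs of a pair of partner chains (percent, with exact 95% intervals for counting error), by class and library. For Col4a1 and Col4a2 the Flox 1 points of fibroblasts and endothelial cells lie at 57.0 and 52.5%, below the others, and for Col1a1 and Col1a2 pericytes lie near 0.

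As a description over 58 points (classes with at least 20 cells in a library, which share libraries and depth), the genes most like Col1a1 in log2(CPM + 1) were Col3a1 (Pearson r = 0.907), Col5a1 (0.830), Lum (0.822), Prg4 (0.798) and Dcn (0.796). Those most like Col4a1 were Foxc1 (0.930), Col4a2 (0.926), Igfbp7 (0.897), Osmr (0.892) and Uaca (0.888). Head-to-head neighbours had r of 0.926 for Col4a1 and Col4a2, 0.8003 for Col4a5 and Col4a6 and 0.615 for Col4a3 and Col4a4. The partner chains Col8a1 and Col8a2 had 0.385.

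The type VI chains, which form beaded filaments around cells, were fibroblast genes in the main. Col6a1 stood at 773, 378, 273 and 345 CPM, Col6a3 at 538, 437, 142 and 172 CPM and Col6a2 at 433, 56.6, 66.7 and 57.3 CPM in fibroblasts. The next classes had at most 20.1 CPM on average. Col6a5 differed: it stood at 150, 154, 398 and 134 CPM in ependymal cells and at a mean of 2.06 CPM in the next class. Ependymal cells numbered 40, 22, 29 and 22.

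Of the short chain collagens, Col8a1 and Col8a2 form the type VIII network and Col10a1 is known from growth plate cartilage. Col8a2 stood at 553, 492, 422 and 448 CPM in ependymal cells and at 511, 592, 410 and 399 CPM in choroid plexus epithelium, and these classes overlapped. Col8a1 was highest in choroid plexus epithelium, at 258, 543, 600 and 362 CPM, and made up 33.6, 47.8, 59.4 and 47.6% of the Col8a1 and Col8a2 UMIs there. In ependymal cells it was at or under 0.746% in each library with enough UMIs. A Col8a2 UMI was found in 87.5, 72.7, 72.4 and 77.3% of ependymal cells and in at most 0.237% of microglia. Col10a1 was found in fibroblasts of the Flox libraries, mostly of Flox 1, at 579, 15.04, 0 and 0 CPM (1223, 84, 0 and 0 UMIs).

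The fibril-associated collagens, which bind to the surface of fibrils or bridge them to the matrix, were split between glia, epithelium and fibroblasts. Col9a3 was highest in choroid plexus epithelium, at 337, 474, 504 and 485 CPM, and 61.2, 61.1, 52.8 and 53.3% of those cells had a UMI, against at most 1.18% of microglia. Newly forming oligodendrocytes, measured in Flox 1 only (63 cells), had 339 CPM of Col9a3, 69.4 of Col9a1, 66.8 of Col20a1 and 26.2 of Col9a2. The oligodendrocyte precursors of the same library had less Col9a3 and Col20a1, at 111 and 15.1 CPM, and more Col9a1 and Col9a2, at 80.7 and 35.3 CPM. Col16a1 stood at 192, 127, 60.3 and 157 CPM in oligodendrocyte precursors. Col12a1 stood at 853, 401, 208 and 357 CPM in fibroblasts. Col14a1 was highest on average in border macrophages, at 18.8, 37.3, 97.9 and 72.2 CPM, and next in fibroblasts, at 130, 47.4, 14.2 and 5.05 CPM, so the order of these classes turned between the Flox and the cKO libraries.

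Among the multiplexins, collagens of basement membranes with interrupted helices, Col18a1, the precursor of endostatin, stood at 329, 127, 32.4 and 57.3 CPM in fibroblasts and at 120, 71.9 and 73.9 CPM in smooth muscle cells of Flox 2, cKO 1 and cKO 2. It averaged 11.5 CPM in oligodendrocyte precursors and 5.32 CPM in endothelial cells. Col15a1 stood at 125, 197, 354 and 473 CPM in fibroblasts, with the cKO libraries above the Flox libraries. In microglia Col15a1 varied little, at 33.5, 37.1, 32.7 and 39.7 CPM, and a UMI was found in 19.9, 22.1, 17.4 and 22.01% of microglia, against at most 1.05% of choroid plexus cells, whose median depth was 3994, 2162, 1828 and 1981 UMIs. Microglia were not alone in this: neutrophils averaged 36.95 ± 34.3 CPM of Col15a1 (SD, n = 4). The transmembrane collagens Col23a1, Col13a1 and Col25a1 averaged 63.5, 65.4 and 28.3 CPM in fibroblasts, and Col7a1, which builds anchoring fibrils, averaged 26.6 CPM there.

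The fibroblasts fell into 5 clusters that the libraries filled unevenly. Cluster S7, with high Eln (elastin), Dcn and Lox, held 156, 188, 5 and 7 cells, and cluster S5 held 50, 410, 43 and 61. Cluster S13, with cycling cells marked by Mki67, held 2, 150, 19 and 10 cells. Col1a2 stood at 18280 and 22299 CPM in S7 of the Flox libraries, which was its highest level in a fibroblast cluster. Within S5 it stood at 9105, 9785, 3268 and 4335 CPM, within S15 at 5630, 8646, 3565 and 2998 CPM, and within S14 at 6951, 4744 and 6217 CPM in Flox 2, cKO 1 and cKO 2. In each of these clusters the Flox libraries measured lay above the cKO libraries. Col1a1 within S5 stood at 8091, 5147, 1398 and 2460 CPM. Col4a1 within S5 stood at 1149, 1007, 1233 and 1290 CPM, with both cKO libraries above both Flox libraries.

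Single chains marked the smaller fibroblast clusters. Col15a1 stood at 1363, 573 and 592 CPM in S14 of Flox 2, cKO 1 and cKO 2, and Col13a1 at 335, 238 and 236 CPM. Col8a2 stood at 1061, 320, 401 and 324 CPM in S15 and Col12a1 at 1143, 720, 201 and 324 CPM. In S15 Col4a1 was low, at 50.1, 343, 185 and 273 CPM, and so was Col3a1, at 683, 812, 185 and 85.2 CPM.

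**Figure D4:**
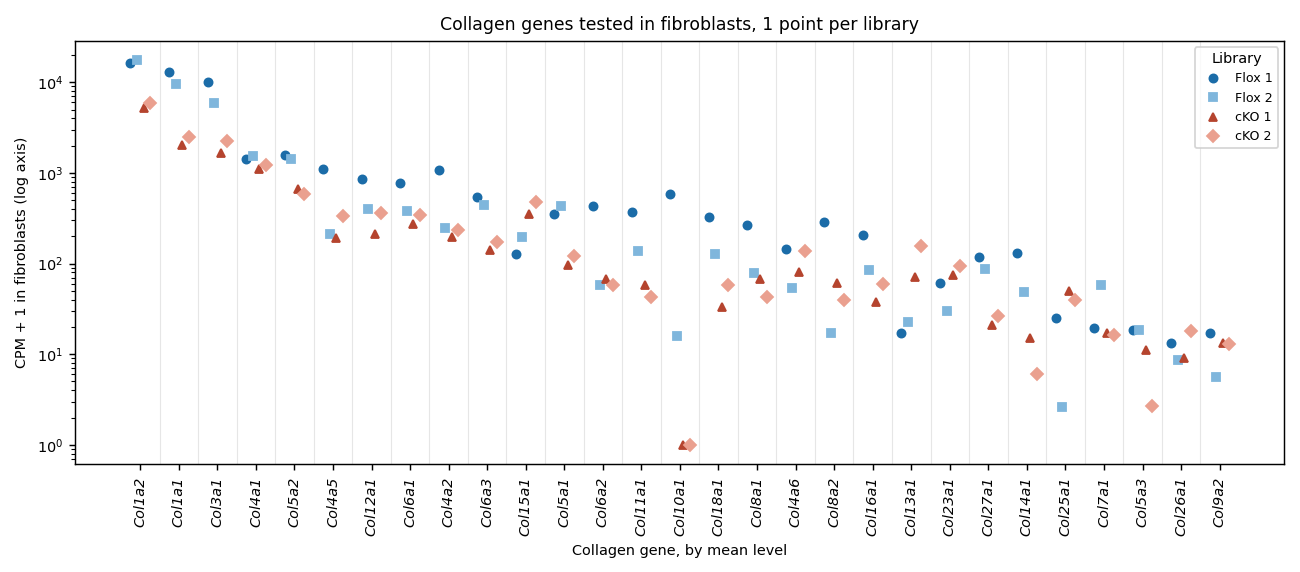
Level in fibroblasts of the collagen genes with the highest means (CPM, log axis), 1 point per library. For Col1a1, Col1a2 and Col3a1 both Flox libraries lie above both cKO libraries, and for Col15a1 below.

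The genotype groups were compared within each class that had at least 50 cells in every library, on UMIs summed per library, with edgeR's quasi-likelihood test and Benjamini-Hochberg adjustment over all genes tested. In fibroblasts 22 of the 29 collagen genes tested were lower and 7 higher in the cKO libraries by their log2 fold change, with a median of -1.71 against 0.0008 over all genes. None passed the test, nor did any of all 9729 genes (0%). At an unadjusted p under 0.05, 17 of the 29 passed, beside 10.6% of all genes. Both cKO libraries lay below both Flox libraries for 19 of them (beside 16.6% of all genes) and above for 4 (beside 26.8%). DESeq2 called 11 of the 29, beside 1.83% of all genes.

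Among the fibroblast genes, Col1a1 had a fold change of -2.41 on the log2 scale (SE 0.43, edgeR adjusted p = 0.227), Col3a1 of -2.12 (SE 0.47, edgeR adjusted p = 0.266) and Col1a2 of -1.71 (SE 0.42, edgeR adjusted p = 0.284). Col5a2 had -1.37 (SE 0.28, edgeR adjusted p = 0.243), Col4a5 -1.43 (SE 0.80, edgeR adjusted p = 0.592) and Col4a1 -0.44 (SE 0.28, edgeR adjusted p = 0.652). None of these 6 differences passed the threshold. The smallest adjusted p, 0.199 by edgeR, was that of Col5a1 and Col27a1. Col13a1 and Col15a1 had positive values, 2.48 and 1.27 (edgeR adjusted p = 0.227 and 0.284). Both chains marked fibroblast cluster S14, which held 7, 30, 39 and 72 cells. Within S14 Flox 2 lay above both cKO libraries for both genes. The part of the shift in cell numbers in these positive values was not tested.

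The fibroblast count depended on which libraries entered the fit. Without Flox 1 edgeR called 16 collagen genes (beside 6.53% of all genes), without Flox 2 it called 21 (beside 15.3%), and without either cKO library it called 0 (beside 0%). Among fibroblasts of S5 alone it called 0 of 11 collagen genes (beside 0% of 1266 genes) and among fibroblasts without S7 it called 0 of 24 (beside 0% of 7150), and Col4a1 then turned to 0.15 and 0.13. Without Flox 1 Col4a5 turned to 0.28. On simulated counts like those of the fibroblasts, with 200 genes raised, the test recovered 3% of 2-fold and 45% of 4-fold increases. It also called 10 genes that had not been changed.

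Genes that fold, process and bind collagen were lower on balance in the same fibroblasts, and none passed. Of 17 measured genes for folding and hydroxylation the median log2 fold change was -0.59, of 10 for processing and cross-linking -0.48, of 8 receptors -0.16, of 12 other basement membrane genes -0.14 and of 14 other interstitial matrix genes -0.60, against 0.0008 over all genes. Lox, which cross-links collagen, stood at 1114, 994, 400 and 409 CPM (log2 fold change -1.48, edgeR adjusted p = 0.227). Serpinh1, the collagen chaperone, stood at 488, 685, 330 and 207 CPM (-1.23, edgeR adjusted p = 0.313). Eln stood at 3926, 426, 22.2 and 48.9 CPM (-6.04, edgeR adjusted p = 0.245), and Fn1, fibronectin, at 4276, 4997, 1547 and 1275 CPM (-1.81, edgeR adjusted p = 0.231). For these 4 genes both cKO libraries lay below both Flox libraries. Eln and Lox were also leading genes of fibroblast cluster S7, which held 156, 188, 5 and 7 cells. The part of this shift in their differences was not tested. Lama1, a laminin chain, lay above, at 123, 116, 202 and 360 CPM (1.14, edgeR adjusted p = 0.359).

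In mature oligodendrocytes 2 of 24 collagen genes passed, both lower in the cKO libraries, beside 0.304% of all 12491 genes. By their log2 fold change 17 of the 24 were lower and 7 higher. Col16a1 stood at 55.1, 43.3, 11.9 and 10.4 CPM, with a fold change of -2.27 on the log2 scale (SE 0.29, edgeR adjusted p = 0.0459). Col6a2 stood at 9.18, 14.5, 1.13 and 0.725 CPM, with -3.77 (SE 0.47, edgeR adjusted p = 0.0459), on 38, 133, 8 and 6 UMIs. Both cKO libraries lay below both Flox libraries for Col16a1 and Col6a2. Col1a1, Col3a1 and Col6a1 had -4.10, -3.99 and -3.67 in this class without passing the adjusted threshold. The part of the libraries' collagen load in these values was not tested. At an unadjusted p under 0.05, 10 of the 24 passed, beside 15.1% of all genes. Without cKO 1 or without cKO 2 edgeR called 0 collagen genes, beside 0.0154 and 0% of all genes. With collagen genes allowed in the clustering Col16a1 had an edgeR adjusted p of 0.0535 and Col6a2 of 0.0528, at log2 fold changes of -2.27 and -3.77. With a mean of at least 50 counts Col16a1 had -2.25 (edgeR adjusted p = 0.0522) and Col6a2 was too low to be tested, and under 10% mitochondrial UMIs Col16a1 had -2.02 (edgeR adjusted p = 0.0557). With a replicate block in the fit Col16a1 had -2.25 (edgeR adjusted p = 0.139) and Col6a2 -3.76 (edgeR adjusted p = 0.164). DESeq2 called 5 of the 18 to which it gave an adjusted p (beside 4.81% of all genes). The class was made of different clusters in the 2 groups: cluster M10 held 1, 3, 680 and 1287 of its cells and M11 held 447, 1038, 210 and 275. Within M11 Col16a1 stood at 56.3, 46.7, 35.4 and 18.97 CPM, and in M10 of the cKO libraries at 8.07 and 7.71 CPM. Of the Col6a2 UMIs, M11 held 38 in Flox 1 and 129 in Flox 2. The part of this shift between clusters in the differences of both genes was not tested.

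Other named genes of mature oligodendrocytes did not pass. Col9a3 stood at 53.9, 27.95, 22.5 and 23.3 CPM (log2 fold change -0.97, edgeR adjusted p = 0.319), Col27a1 at 20.5, 68.5, 22.8 and 14.5 CPM (-1.36, edgeR adjusted p = 0.287) and Col1a2 at 13.8, 35.8, 11.7 and 11.4 CPM (-1.196, edgeR adjusted p = 0.274). Of the 43 genes of the other lists measured in this class 1 passed (beside 0.304% of all genes): Adamts2, which cleaves the amino-terminal end of procollagen, stood at 54.6, 49.6, 5.52 and 7.25 CPM (-3.13, SE 0.31, edgeR adjusted p = 0.0403). Without cKO 1 or without cKO 2 edgeR called 0 list genes there, and without Flox 1 or Flox 2 it called 6 and 13 (beside 4.54 and 13.9% of all genes). None of the list genes measured in the other classes passed edgeR's adjusted threshold. The nearest was Ccn2, a matricellular protein, in choroid plexus epithelium, at 8.42, 8.25, 28.7 and 53.8 CPM (2.35, edgeR adjusted p = 0.149), followed by the same gene in endothelial cells, at 111, 245, 1544 and 2003 CPM (3.27, edgeR adjusted p = 0.169).

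In endothelial cells 0 of 11 collagen genes passed (beside 0% of all genes), 5 had an unadjusted p under 0.05 (beside 7.59%), and DESeq2 called 1 (beside 0.617%). Col4a1 had a fold change of 0.05 on the log2 scale (SE 0.62, edgeR adjusted p = 0.999) and turned to -0.64 without Flox 1. Col4a2 had -0.40 (SE 0.24, edgeR adjusted p = 0.785). Col1a2, at 16.7, 75.4, 7.92 and 7.41 CPM, had -2.75 (SE 0.57, edgeR adjusted p = 0.445), and its levels moved with the collagen load of the libraries given above, whose part was not tested.

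In astrocytes 0 of 16 collagen genes passed (beside 0.0204% of all genes), 3 had an unadjusted p under 0.05 (beside 14.6%), and DESeq2 called 0 of the 3 to which it gave an adjusted p (beside 1.51%). Col1a2 had a fold change of 0.67 on the log2 scale (SE 0.38, edgeR adjusted p = 0.440), with overlapping groups. Col4a5 had -0.74 (SE 0.37, edgeR adjusted p = 0.389) and Col4a1 0.72 (SE 0.37, edgeR adjusted p = 0.401). Col1a1 had -0.71 (SE 0.33, edgeR adjusted p = 0.372), Col9a3 -0.88 (SE 0.34, edgeR adjusted p = 0.300) and Col5a2 -0.55 (SE 0.35, edgeR adjusted p = 0.499). In choroid plexus epithelium 0 of 9 passed (beside 0.188%), 1 had an unadjusted p under 0.05 (beside 12.2%), and DESeq2 called 0 of 5 (beside 0.626%). Its leading genes Col8a2, Col9a3 and Col8a1 had -0.38, 0.35 and 0.32, and the groups overlapped for Col8a1. In neuroblasts 0 of 4 passed (beside 0%), 1 had an unadjusted p under 0.05 (beside 5.36%) and DESeq2 called 0 (beside 0.0145%). There Col11a1, at 59.3, 72.7, 115 and 84.3 CPM, had 0.54 (SE 0.32, edgeR adjusted p = 0.790).

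In microglia 0 of 25 collagen genes passed (beside 0% of all genes), 10 had an unadjusted p under 0.05 (beside 10.9%), and DESeq2 called 3 of 18 (beside 2.09%). Col27a1 had a fold change of -0.80 on the log2 scale (SE 0.20, edgeR adjusted p = 0.440) with both cKO libraries below both Flox libraries, and Col15a1 had -0.10 (SE 0.16, edgeR adjusted p = 0.798). In border macrophages 0 of 4 passed (beside 0.801%), all 4 had an unadjusted p under 0.05 (beside 12.5%), and DESeq2 called 1 (beside 2.53%). Col14a1 had 1.56 there (SE 0.32, edgeR adjusted p = 0.0817), with both cKO libraries above both Flox libraries. In monocyte-macrophages 0 of 8 passed (beside 0%), 4 had an unadjusted p under 0.05 (beside 8.35%), and DESeq2 called 3 (beside 1.55%). Col1a1 had the smallest unadjusted p there, at 6.40, 10.8, 0.279 and 0.245 CPM (log2 fold change -5.09, edgeR adjusted p = 0.386). These levels rest on 4, 47, 5 and 2 UMIs and moved with the Col1a1 level of microglia given above, whose part was not tested. In neutrophils 1 collagen gene was tested and 0 passed (beside 0%), while 6.97% of all genes had an unadjusted p under 0.05. This gene, Col15a1, at 50.3, 79.2, 5.91 and 12.4 CPM, had -3.03 (SE 0.49, unadjusted p = 0.000606, edgeR adjusted p = 0.232), and DESeq2 called it (beside 0.872% of all genes). Pericytes, smooth muscle cells, oligodendrocyte precursors, newly forming oligodendrocytes, ependymal cells and T or NK cells had fewer than 50 cells in a library and were not tested.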

How the data were processed

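Each of the 4 libraries was deposited as a matrix of UMI counts for every gene and barcode, which the authors had not normalized. The submitters' processing notes name fastp 0.24.0, STARsolo and the mouse build mm10. A STARsolo version, a gene annotation and a filter on barcodes were not given in the sources used here. Groups came from the sample titles. Barcodes were kept with at least 500 UMIs, 250 genes and at most 20% mitochondrial UMIs, and 1445 predicted doublets (Scrublet in scanpy 1.11.5, expected rate 6%) were removed, leaving 13220 to 16091 cells per library. Cells were clustered with Leiden (leidenalg 0.10.2, resolution 1, 2000 variable genes without collagen genes, 30 components, 15 neighbours), and stromal and glial cells again at 0.8. Clusters were named by hand from marker lists, and a cluster with conflicting markers kept no name. A level needed at least 10 cells of the class in a library, a chain share at least 50 UMIs of the pair.

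UMIs were summed per library and class and tested with edgeR 4.0.16 in R 4.3.3 (quasi-likelihood, TMM, filterByExpr, Benjamini-Hochberg, threshold 0.05), and with DESeq2 1.42.0 as the other tool. The test was checked on simulated data with 200 changed genes. Exact intervals are at 95% and cover counting error only. Alternatives were other filters, doublets kept, resolutions 0.5 and 2, thinning, each library left out and a replicate block; fits of fibroblast cluster S5 alone, of fibroblasts without S7 and of a crossed block were chosen after seeing the data. Whether the replicate numbers pair libraries could not be decided with 2 libraries per group. Collagen genes are named in the class where they peak, and the 6 highest per class in the genotype comparison together with all that passed; genes of the other lists are named for fibroblasts, for mature oligodendrocytes where they passed, and for the smallest adjusted p elsewhere, and the rest are given as counts. Names of cells, genes and lists were chosen with earlier results of these data known. A planned count of genes whose libraries all lay above those of another class is not given, because most collagen genes passed its level filter through the class in which they were high.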

Additional observations from a re-analysis of the deposited data

Results flagged for a closer look

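For 11 of the collagen genes tested, both cKO libraries lay above both Flox libraries in at least 1 class and below them in another, and the difference between the classes was not tested for any of them. None of these single differences between the genotype groups passed edgeR's adjusted threshold. The values are given for the class with the highest and the class with the lowest log2 fold change among those whose groups do not overlap. Within single classes both cKO libraries lay above both Flox libraries for 18.9 to 34.2% of all genes and below for 15 to 26%. The share of all genes that turned between classes in this way was not counted.

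Col14a1 had 1.56 in border macrophages and -3.35 in fibroblasts, a difference of 4.91. Col15a1 had 1.31 in mature oligodendrocytes and -3.03 in neutrophils, a difference of 4.34, and it was also higher in fibroblasts (1.27). Col4a1 had 1.67 in border macrophages, at 0.627, 5.27, 8.78 and 12.3 CPM (1, 13, 13 and 21 UMIs), and -0.44 in fibroblasts, a difference of 2.11.

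With fibroblasts as the lower class, Col5a3 differed by 3.04 from mature oligodendrocytes, Col11a1 by 3.03 from neuroblasts and Col6a3 by 2.14 from mature oligodendrocytes. With mature oligodendrocytes as the lower class, Col23a1 differed by 2.09 from fibroblasts, Col9a3 by 1.85 from endothelial cells and Col11a2 by 1.71 from microglia. Col8a2 differed by 1.47 between microglia (higher) and choroid plexus epithelium, and Col9a2 by 1.43 between mature oligodendrocytes (higher) and microglia. In microglia these levels rested on 4, 6, 11 and 14 UMIs of Col8a2 and 18, 10, 7 and 8 of Col9a2.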

How the results depend on the processing

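The mean collagen level moved beyond 1 SD for pericytes (3411 CPM as reported, 4219.9 at resolution 0.5, 6449.6 at resolution 2, 6474.1 with collagen genes allowed in the clustering), smooth muscle cells (3417 as reported, 5276.3 under 10% mitochondrial UMIs, 2930.2 at resolution 2, 2475.8 with cells thinned to 1000 UMIs), newly forming oligodendrocytes (1190.5 thinned) and microglia (244.96 thinned). The mean share of collagen UMIs in pericytes, 1.69%, became 10.9% with doublets kept and at resolution 0.5, 6.26% at resolution 2 and 6.27% with collagen genes allowed. The mean ratio of Col4a1 to Col4a2 UMIs in pericytes, 6.02, became 6.36 with doublets kept and 6.52 with at least 1000 UMIs per cell. The cause was not tested.

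The count of collagen genes that passed the genotype test with DESeq2 was 11 in fibroblasts, 1 in endothelial cells, 5 in mature oligodendrocytes, 3 in microglia, 3 in monocyte-macrophages, 1 in border macrophages and 1 in neutrophils. With no filter on low counts it was 21 in fibroblasts, 2 in astrocytes, 8 in mature oligodendrocytes, 4 in neuroblasts, 3 in choroid plexus epithelium, 5 in microglia, 5 in monocyte-macrophages, 3 in border macrophages and 3 in neutrophils, beside 2.92, 2.5, 5.78, 0.561, 1.63, 1.34, 3.4, 3.64 and 0.944% of all genes in the same order. In mature oligodendrocytes it was 0 with a mean of at least 50 counts, 1 under 10% mitochondrial UMIs and 0 with collagen genes allowed. The same settings called 0, 0.28 and 0.216% of all genes. With a replicate block the count was 0 in mature oligodendrocytes and 2 in monocyte-macrophages (beside 0 and 1.77% of all genes) and as before elsewhere. Libraries of the same number correlated at -0.29 to 0.26 in their deviations from the group means. With 2 libraries per group these correlations cannot decide whether the numbers pair libraries. With the crossed replicate block the count was 3 in astrocytes, 5 in mature oligodendrocytes and 1 in border macrophages, beside 7.36, 4.7 and 2.02% of all genes.

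Leaving out 1 library gave 0 to 21 collagen genes in fibroblasts, 0 to 3 in endothelial cells, 0 to 4 in astrocytes, 0 to 8 in mature oligodendrocytes, 0 to 3 in neuroblasts, 0 to 2 in choroid plexus epithelium, 0 to 8 in microglia, 1 to 3 in monocyte-macrophages, 0 to 3 in border macrophages and 0 to 2 in neutrophils. Of all genes the same fits called 0 to 15.3, 0.463 to 2.5, 0 to 11.4, 0 to 13.9, 0 to 8.89, 0.853 to 10.7, 0.0537 to 30, 0.17 to 12.3, 0.115 to 16.8 and 0.0282 to 0.812%, in the same order. For the other lists it gave 0 to 27 genes in fibroblasts, 1 to 3 in endothelial cells, 0 to 9 in astrocytes, 0 to 13 in mature oligodendrocytes, 0 to 3 in neuroblasts, 0 to 6 in choroid plexus epithelium, 0 to 21 in microglia, 0 to 5 in monocyte-macrophages and 0 to 5 in border macrophages. DESeq2 called 4 of 61, 1 of 49, 1 of 19, 5 of 32 and 4 of 45 list genes in fibroblasts, endothelial cells, astrocytes, mature oligodendrocytes and microglia. Beside these stood 1.83, 0.617, 1.51, 4.81 and 2.09% of all genes in the same order. The replicate block called 0 of 43 list genes in mature oligodendrocytes, beside 0% of all genes.

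A log2 fold change turned sign for Col4a1 in fibroblasts (0.15 in cluster S5 alone, 0.13 without S7) and for Col27a1 in monocyte-macrophages (0.0026 with collagen genes allowed). Over the fits that leave out 1 library, the value ranged from -2.23 to 0.28 for Col4a5 in fibroblasts, -0.64 to 1.48 for Col4a1 and -1.73 to 0.43 for Col5a2 in endothelial cells, -0.69 to 3.14 for Col4a1 in mature oligodendrocytes, -2.98 to 2.05 for Col1a2 in neuroblasts, -0.13 to 1.007 for Col8a1 and -0.25 to 0.70 for Col4a4 in choroid plexus epithelium, -0.255 to 0.0287 for Col15a1 in microglia and -0.29 to 3.31 for Col14a1 in monocyte-macrophages. The sign turned without Flox 1 for all but Col5a2 and Col1a2, which turned without Flox 2, and Col15a1, which turned without cKO 1, and Col4a1, Col8a1 and Col4a4 turned without cKO 1 as well. Among the named genes, 543 values under the other settings kept their direction and side of the threshold, not counting left-out libraries. Beside them, 33 values came to pass the threshold, 6 ceased to pass it and 3 turned sign. Depth limits the counts of genes in the shallow classes: the fibroblasts of 3 of the 4 libraries had a median under 2000 UMIs per cell.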

Other observations

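The unnamed vessel clusters also carried collagen. Cluster S8, with markers of pericytes and, less so, of endothelial cells, held 2, 90, 125 and 115 cells. Its 10 leading genes held 2 pericyte markers and no endothelial marker, and its cells are not part of the pericyte values above. The Col4a1 level of S8 in Flox 2, cKO 1 and cKO 2 was 3817, 5252 and 5599 CPM, above every named class in those libraries. Its Col1a2 level was 2226, 908 and 1191 CPM, with Flox 2 highest. Cluster S9, with markers of endothelial cells and, less so, of monocyte-macrophages, had 982.6, 822 and 749 CPM of Col4a1 in the same libraries. Of these libraries Flox 2 had the most type I and III transcripts in S9. Col1a2 stood at 6278, 151 and 78.2 CPM, Col1a1 at 3324, 38.6 and 8.23 CPM and Col3a1 at 2268, 26.7 and 10.3 CPM. Flox 1 had only 6 cells in S9, under the 10 needed for a level. Those cells held 168 Col1a2, 166 Col1a1 and 134 Col3a1 UMIs, so Flox 2 did not stand alone. The 75 cells of cKO 1 held 51 Col1a2 and 13 Col1a1 UMIs.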
